A study of Mus musculus with 70 samples.

Results

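Mouse cancer cell lines that kept antiviral genes on without any added cytokine were set against lines that did not. The tonic set held YUMMER1.7 (melanoma, C57BL/6), CT26.2 (colorectal cancer, BALB/c) and Renca (renal cancer, BALB/c), and the quiet set held B16.1 (melanoma), KPC.2 (pancreatic cancer), LLC (lung cancer) and MC38.7 (colorectal cancer), all 4 from C57BL/6. The sets were chosen by the unstimulated level of the antiviral genes themselves, so every unstimulated difference given here is a description without a test. Panc02.3 (pancreatic cancer, C57BL/6), with intermediate levels, was placed in neither set. Of the 70 libraries of the series, 20 were unstimulated libraries of these 7 lines: 8 from the tonic lines (3, 3 and 2, with 2 from Renca) and 12 from the quiet lines (3 each). Of the 16147 genes that passed the filter on low counts, 124 separated the sets by at least 2-fold: 108 (0.669%) were higher and 16 (0.0991%) lower in all 3 tonic lines than in all 4 quiet lines.

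The series measured RNA in 8 lines that received no cytokine (NS), interferon beta (IFNb, 1000 units per mL) or interferon gamma (IFNg, 100 ng per mL) for 48 hours. All lines grew in DMEM with fetal bovine serum and no line is labelled as engineered. Each cell line is 1 unit here, because libraries of a line share its history, and nothing in the labels tells whether its replicates came from different cultures. Total estimated counts ran between 4451334 and 12506596 in the tonic and between 4125643 and 18877470 in the quiet unstimulated libraries. Mitochondrially encoded genes took 2.47% to 4.89% of counts in the tonic and 1.75% to 3.79% in the quiet libraries. Both BALB/c lines are tonic and all quiet lines are C57BL/6, so strain and set cannot be told apart for CT26.2 and Renca. The expected lineage markers were absent from several lines: the median melanocyte marker stood at -1.84 log2 CPM in YUMMER1.7, against 8.61 in B16.1, and the median intestinal marker at -1.14 in CT26.2 and -2.29 in MC38.7.

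Type I interferons such as interferon beta bind the receptor IFNAR, whose JAK kinases activate STAT factors. With IRF9, STAT2 takes part in a complex that binds the interferon-stimulated response element (ISRE) in promoters and turns on antiviral genes. Interferon gamma acts through another receptor and leads to binding at GAS elements. Low, continuous activity of this pathway without infection is called tonic signalling, and IRF7, itself an interferon target, amplifies it.

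Levels are in CPM, the share of a library's counts after scaling between libraries, not divided by gene length, so they compare lines for 1 gene and never 1 gene with another. A line's level is the mean over its libraries. Genes were called separated where the lowest mean of one set exceeded the highest mean of the other by at least 1 log2 unit, a distance called the gap below, computed on log2 CPM with a prior count of 2. In bulk RNA, fewer expressing cells and less RNA per cell cannot be told apart.

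The interferon pathway stood apart at its transcription factors and its targets, while its receptors and kinases overlapped between the sets. Irf7, the amplifier of type I interferon signalling (chr7:141263183-141266499, GRCm38), averaged 285 ± 36.3 CPM in YUMMER1.7, 248 ± 13.3 CPM in CT26.2 and 278 ± 8.54 CPM in Renca (SD, n = 3, 3 and 2). The quiet lines had 0.235 ± 0.0229 CPM in B16.1, 2.22 ± 0.39 CPM in KPC.2, 0.55 ± 0.281 CPM in LLC and 0.476 ± 0.294 CPM in MC38.7 (SD, n = 3 each). The 3 tonic lines were close to each other, no library of one set reached the other, and the gap was 6.70 log2 units. Of the 12 STAT and IRF factors, 6 were separated with higher levels in the tonic lines, among them Irf7, Stat2, Irf9, Irf8 and Batf2. That is a larger share than the 0.669% of all genes tested that were separated in this direction, which is read only as a description because the rule used this contrast.

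Irf9, the DNA-binding partner of STAT2, ran between 55.0 and 150 CPM over the 8 tonic libraries (median 108) and between 3.44 and 22.5 CPM over the 12 quiet ones (median 6.82). Stat2 had 319, 161 and 63.5 CPM in YUMMER1.7, CT26.2 and Renca, against 7.84 to 23.3 CPM as quiet line means. Irf1, a factor that answers strongly to interferon gamma, was not separated: it had 106, 20.4 and 26.5 CPM in YUMMER1.7, CT26.2 and Renca, against 11.8, 61.2, 26.0 and 48.8 CPM in B16.1, KPC.2, LLC and MC38.7. CT26.2 and Renca thus lay inside the range of the quiet lines for Irf1 while far above them for Irf7. Irf3, Irf2 and Stat3 also overlapped.

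None of the 9 receptor and JAK kinase genes was separated, and no member had line means free of overlap. Ifnar1, a chain of the type I receptor, had 74.1, 55.6 and 69.1 CPM in YUMMER1.7, CT26.2 and Renca, within the 52.7 to 117 CPM of the quiet line means. Ifnar2, its partner, had 36.7, 23.3 and 54.8 CPM in the same tonic lines, against quiet line means between 17.5 and 48.5 CPM. Jak1, a kinase of both receptors, overlapped as well.

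Interferon transcripts themselves were close to 0. Ifnb1, the gene for interferon beta, had 18, 10 and 7 counts in the 3 unstimulated YUMMER1.7 libraries, 1 count in 1 CT26.2 library and 1 in 1 Renca library. It had 0 counts in all 12 quiet and all 3 Panc02.3 libraries, where a count of 0 leaves room for up to 3 counts over the same libraries. Among the tonic lines only YUMMER1.7 therefore had Ifnb1 above that floor. Ifnz, a type I interferon of the mouse, had 43 counts over the tonic and 55 over the quiet libraries. Ifng had 0 counts in both sets, and none of the interferon alpha genes on the list exceeded 1 count in all tonic libraries or 4 counts in all quiet libraries together.

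**Figure D1:**
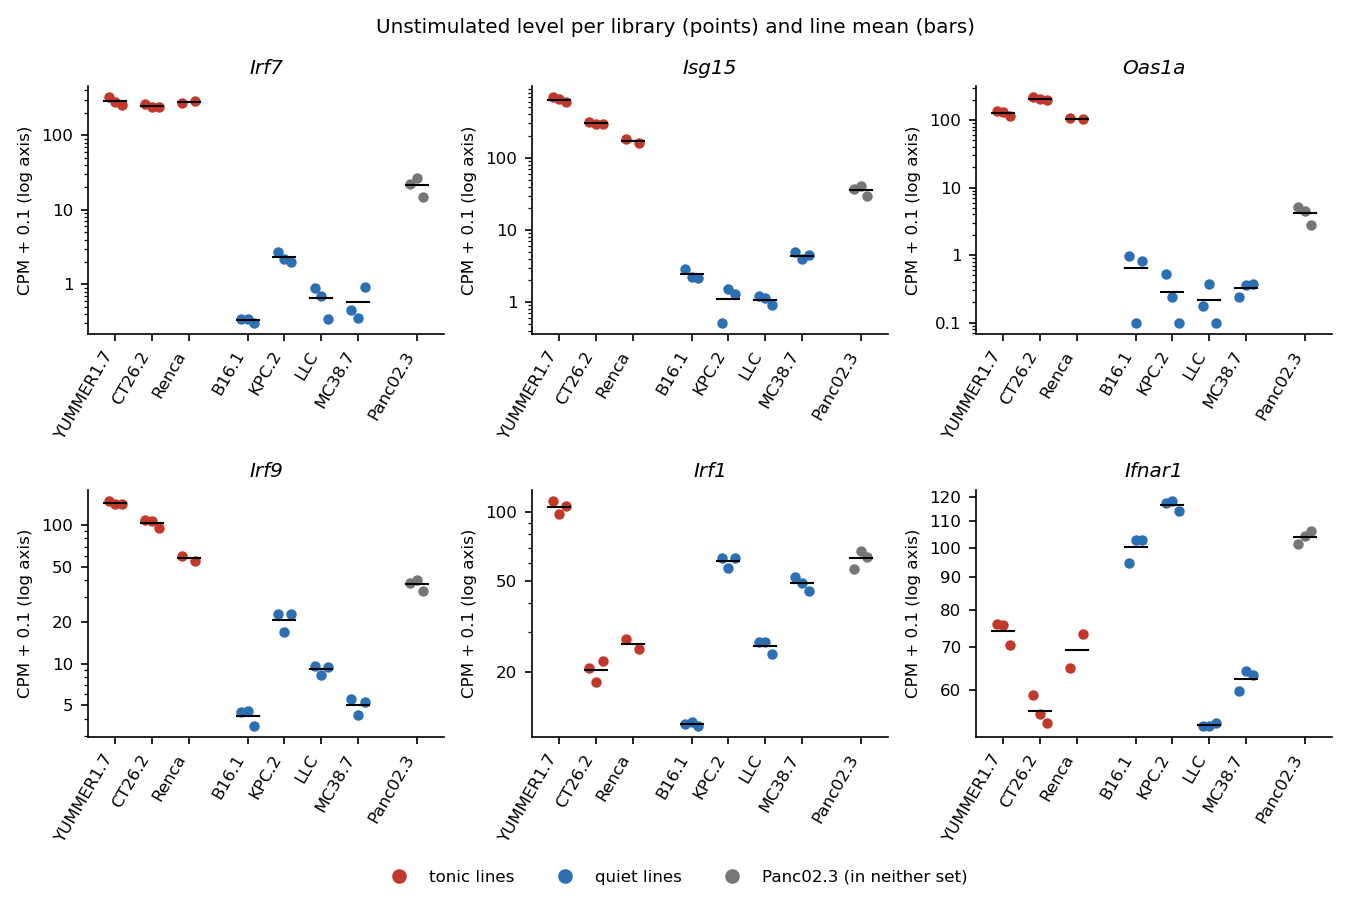
Unstimulated level (CPM + 0.1, log axis) of 6 genes in every library, with lines along the horizontal axis (tonic lines left, quiet lines next, Panc02.3 last); points are libraries and bars are line means. Irf7, Isg15, Oas1a and Irf9 separate the sets without overlap, while Irf1 and Ifnar1 do not, and Panc02.3 lies between the sets for Irf7 at 21.2 CPM.

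Antiviral effectors, the products that block viral replication, were the genes that chose the lines, and 29 of the 49 tested were separated. Ifi44, an antiviral gene of the interferon response, had the widest gap on the list at 8.80 log2 units: 360 ± 49.9 CPM in YUMMER1.7, 765 ± 78.4 CPM in CT26.2 and 170 ± 9.59 CPM in Renca, against line means between 0.0762 and 0.217 CPM in the quiet lines. Oas2, an enzyme that makes the messenger activating RNase L, had 179, 186 and 93.8 CPM in YUMMER1.7, CT26.2 and Renca, against 0 to 0.218 CPM in the quiet lines. Quiet sums of 17 counts for Ifi44 and 8 counts for Oas2 over 12 libraries put those lines near the detection limit, so the gap in log2 units depends on the prior count. Isg15, a ubiquitin-like modifier, had 644 ± 51.9, 303 ± 9.87 and 172 ± 15 CPM in YUMMER1.7, CT26.2 and Renca, against 0.978 to 4.31 CPM as quiet line means. Usp18, which removes that modifier and restrains the type I receptor, ran between 38.0 and 294 CPM in the tonic libraries and between 0.246 and 1 CPM in the quiet ones.

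The tonic lines did not share 1 profile. Ifit3, which binds viral RNA together with Ifit1, had 1654 ± 161 CPM in YUMMER1.7 but only 22.3 ± 1.59 CPM in CT26.2 and 8.08 ± 4.19 CPM in Renca, against 0.890 to 2.62 CPM as quiet line means. Ifit1 followed the same order, with 892, 158 and 27.3 CPM in YUMMER1.7, CT26.2 and Renca, against 0.187 to 4.32 CPM in the quiet lines. YUMMER1.7 was thus far above the other tonic lines for Ifit3 and close to them for Irf7. Mx1 and Ifit2 were not separated, because CT26.2 and Renca had 2.83 and 4.75 CPM of Mx1, with 93.1 CPM in YUMMER1.7, against 6.44 CPM in B16.1, and because CT26.2 had 25.3 CPM of Ifit2, against 78.3 CPM in B16.1. Mx2, a paralog of Mx1, was separated, with 60.2, 46.7 and 42.1 CPM in YUMMER1.7, CT26.2 and Renca, against at most 0.414 CPM as a quiet line mean. Shisa5 and Ifitm2 had high levels in both sets and overlapped.

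Among nucleic acid sensors and their adaptors, 10 of 23 tested members were separated, all higher in the tonic lines. Ddx58, which encodes the viral RNA sensor RIG-I, had 405, 130 and 86.0 CPM in YUMMER1.7, CT26.2 and Renca, against 7.25 to 34.3 CPM as quiet line means. Ifih1, which encodes the sensor MDA5, had 212, 88.0 and 39.5 CPM in the same tonic lines, against 9.29 CPM in B16.1, 19.0 CPM in KPC.2, 0.144 CPM in LLC and 0.985 CPM in MC38.7. Zbp1, a sensor of Z-form nucleic acids, had 125, 11.6 and 13.4 CPM in YUMMER1.7, CT26.2 and Renca, against 7 counts in all 12 quiet libraries. These genes are themselves interferon targets. Mavs, the adaptor of RIG-I and MDA5, overlapped, with 59.8, 52.5 and 116 CPM in YUMMER1.7, CT26.2 and Renca, against 41.7 to 157 CPM in the quiet lines.

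Of the DNA sensing route, Cgas and Tmem173 followed neither set. Cgas, which makes the messenger that activates STING, had 21.1 CPM in YUMMER1.7 and 35.4 CPM in CT26.2 but 0.370 CPM in Renca, against 8.34 CPM in B16.1, 2.47 CPM in KPC.2, 0.0594 CPM in LLC and 32.5 CPM in MC38.7. Tmem173, which encodes STING, had 53.3, 18.0 and 26.9 CPM in YUMMER1.7, CT26.2 and Renca, against 31.0, 0, 54.9 and 1.78 CPM in B16.1, KPC.2, LLC and MC38.7. Renca was tonic with little Cgas, and MC38.7 was quiet with much Cgas and little Tmem173. The 12 nucleic acid clearance and editing enzymes had no separated member: Trex1, which degrades cytosolic DNA, had 40.0, 4.93 and 3.76 CPM in the tonic lines in that order, against 4.52 to 9.19 CPM in the quiet lines. Adar, which edits double-stranded RNA, was the list's member without overlap, with a gap of 0.52 log2 units, below the 2-fold limit. Of 20 silencers of retroelements and DNA methylation genes, none was separated, while Trim28, Ehmt1, Suv39h1 and Ezh2 were lower and Daxx was higher in all tonic lines by less than 2-fold. Line means without overlap were lower in the tonic lines for 2.29% and higher for 4.17% of all genes.

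Of the 19 GBP and IRG GTPases, which attack the vacuoles of intracellular pathogens, 8 were separated. Gbp7 had 171, 37.6 and 42.5 CPM in YUMMER1.7, CT26.2 and Renca, against 0.530 to 1.65 CPM as quiet line means. Gbp2 and Irgm1 were not separated, since Renca had 7.32 CPM of Gbp2, against 7.73 CPM in KPC.2, and 45.2 CPM of Irgm1, against 49.8 CPM in KPC.2. Several members of this family, as well as the Oas1, Apol9, Ifi200 and Sp100 clusters, are near-identical copies, so the split of reads between copies is uncertain.

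Antigen presentation overlapped for the most part. Only H2-M3, a nonclassical class I gene, was separated among 27 tested class I members, with 20.8, 32.3 and 36.0 CPM in YUMMER1.7, CT26.2 and Renca, against 0 to 5.56 CPM as quiet line means, while 10 of the 27 were higher without overlap, against 4.17% of all genes. B2m, the light chain of class I molecules, had 1751, 732 and 422 CPM in YUMMER1.7, CT26.2 and Renca, against 120, 260, 195 and 844 CPM in B16.1, KPC.2, LLC and MC38.7, so that MC38.7 lay within the tonic lines. H2-K1, a classical heavy chain, had 638, 309 and 410 CPM in the tonic lines, against 8.23 CPM in B16.1, 267 CPM in KPC.2, 14.7 CPM in LLC and 441 CPM in MC38.7. BALB/c and C57BL/6 carry different alleles of the class I genes, and how reads of the BALB/c alleles were assigned was not tested. Cd274, the checkpoint ligand PD-L1, was the separated gene of its list of 15, with 34.0 ± 7.38, 23.5 ± 1.05 and 38.6 ± 3.92 CPM in YUMMER1.7, CT26.2 and Renca, against 2.61 to 10.9 CPM as quiet line means.

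No chemokine of 15, MHC class II gene of 11 or NF-kB subunit or target of 19 was separated. Of 13 feedback inhibitors, Isg15, which is on that list too, was the separated member. The proliferation, MYC and ribosome biogenesis, cholesterol synthesis, glycolysis, stress, extracellular matrix, p53, interferon gene neighbour and lineage lists had none. Among 24 cell death genes, Casp1, the inflammatory caspase, and Tnfsf10, which encodes TRAIL, were separated.

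**Figure D2:**
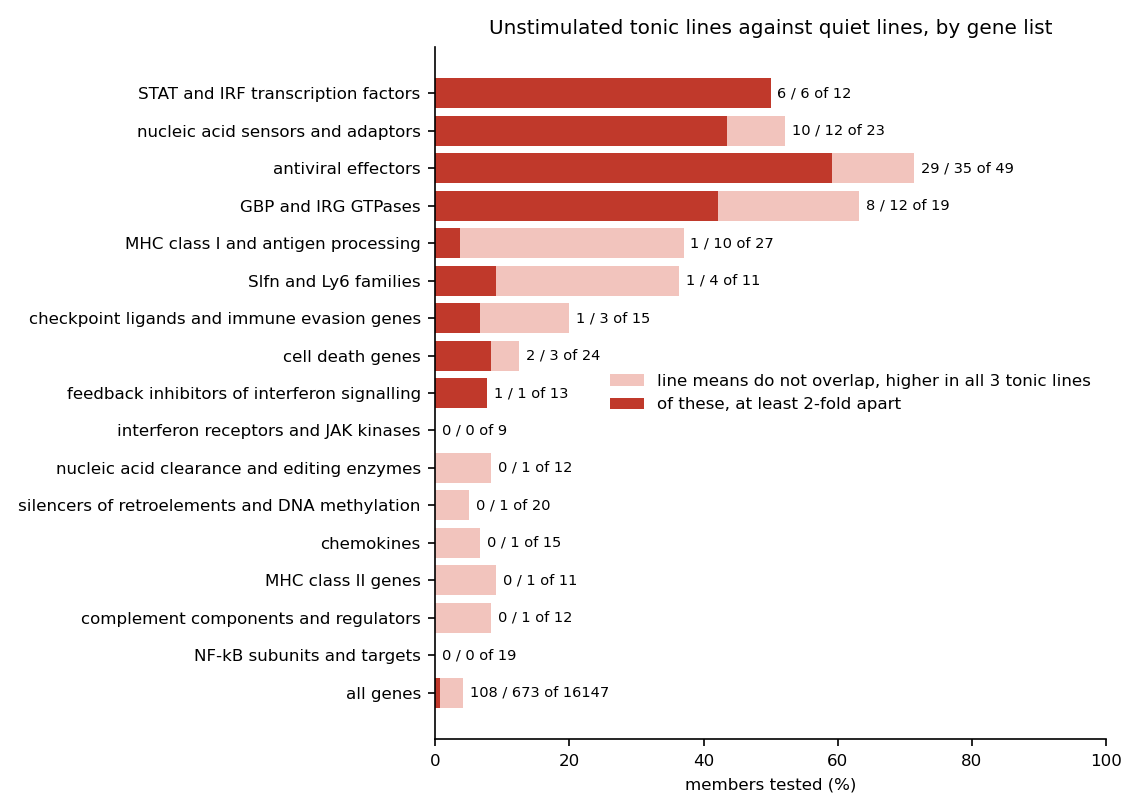
Share of the tested members of each gene list (percent) whose unstimulated line means do not overlap and are higher in all 3 tonic lines (light bars), and of those at least 2-fold apart (dark bars); numbers give both counts and the members tested. Antiviral effectors lead with 29 of 49, while receptors and JAK kinases have 0 of 9 and all genes have 108 of 16147.

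Over all genes, the classes differed in how many members were separated. Of 219 tested genes on the 13 interferon lists, 56 (25.6%) were higher in all tonic lines by 2-fold and 0 lower. A further 644 genes were on no such list but were raised at least 2-fold by IFNb or IFNg in at least 2 of the 4 quiet lines (edgeR, adjusted p under 0.05), and 40 of them (6.21%) were separated, all higher. The unstimulated quiet libraries serve both in that induction and in the separation, so the induction only sorts genes. The remaining 15284 genes gave 12 that were higher (0.0785%) and 16 that were lower. The median difference between the set means was 1.84 log2 units for listed, 0.99 for induced and -0.01 for the remaining genes, against 0.02 over all genes. Without the 2-fold limit, 673 genes (4.17%) were higher and 370 (2.29%) lower in all tonic lines, and 466 and 367 of these were in neither interferon class.

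Near the limit, Hspa12a, Helz2 and Trim34b stood just inside it with gaps of 1.02, 1.03 and 1.03 log2 units, and Ogn, Trim34a and Ecm2 just outside with gaps of 0.99, 0.98 and 0.98. Among lower genes, Prr5, Slc2a3 and Tfrc stood just inside with gaps of 1.01, 1.03 and 1.06, and Otx1, Lin28b and Gm12411 just outside with gaps of 0.94, 0.92 and 0.86. Leaving out 1 line lowers the number of lines to be separated and raises the counts. Without YUMMER1.7, CT26.2, Renca or KPC.2 the higher genes numbered 381, 218, 216 and 193. The lower genes numbered 192, 34, 42, 34, 63, 36 and 44 without YUMMER1.7, CT26.2, Renca, B16.1, KPC.2, LLC and MC38.7 in that order. YUMMER1.7 against the quiet lines, all C57BL/6, had 944 higher and 144 lower genes.

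**Figure D3:**
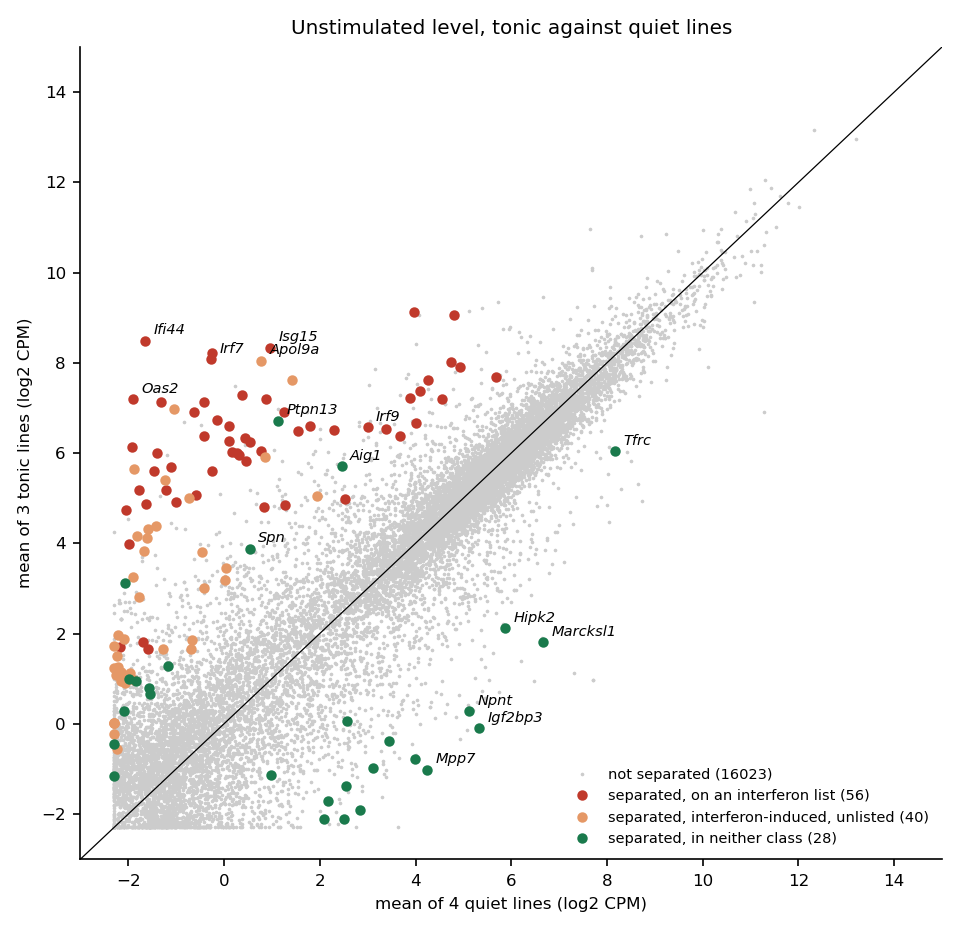
Mean of the 3 tonic lines (vertical axis) against the mean of the 4 quiet lines (horizontal axis), unstimulated, in log2 CPM, with 1 point for each of 16147 genes; coloured points are the 124 genes that separate the sets by at least 2-fold. The 56 listed and 40 induced genes lie above the diagonal, and the 16 separated genes below it are in neither interferon class; many genes as far from the diagonal have overlapping line means.

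The 40 induced genes outside the lists included named genes of several kinds and many predicted loci. Sp140, a nuclear body protein, had 30.5, 59.8 and 40.9 CPM in YUMMER1.7, CT26.2 and Renca, against 0 to 1.06 CPM as quiet line means. Apol9a, an apolipoprotein L family gene, had 227 ± 8.97, 256 ± 11.6 and 319 ± 30.4 CPM in YUMMER1.7, CT26.2 and Renca, against 0.311, 2.17, 0.436 and 12.1 CPM in B16.1, KPC.2, LLC and MC38.7. It was highest in Renca, the tonic line with the least Ifit3. Trim12c, of the Trim5 group of retroviral restriction factors, had 88.1, 62.9 and 40.1 CPM in the tonic lines, against 0.965 to 3.06 CPM in the quiet lines. Csn3, the milk protein kappa casein, had 8.30, 90.2 and 42.6 CPM in YUMMER1.7, CT26.2 and Renca, against 0 to 1.62 CPM in the quiet lines.

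A split made after the data were seen compared the cytokines in the quiet lines. It took only genes that met the induction rule in the quiet lines, on an interferon list or not. Of 63 such genes whose IFNb level exceeded their IFNg level by at least 2-fold on the mean of the quiet lines, 36 (57.1%) were separated. Of 532 genes within 2-fold the separated ones were 40 (7.52%), and of 204 genes at least 2-fold higher with IFNg they were 20 (9.80%). The median unstimulated difference between tonic and quiet lines was 4.01, 0.99 and 1.35 log2 units in that order. The lines were chosen by antiviral genes and the induction used the unstimulated quiet libraries. These shares may therefore follow in part from the choice of lines, and they were not tested. Irf7 and Isg15 belong to the IFNb class, and Irf1 and Batf2 to the IFNg class. Batf2, a factor of the interferon gamma response, was separated at low levels, with 1.78 to 7.01 CPM as tonic line means without cytokine, against 73.5 to 230 CPM in the same lines with IFNg.

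Promoter letters were read for the separated genes, since ISRE and GAS elements are where the 2 pathways bind. The windows hold 250 bases before and 50 after a gene's start, from RefSeq on GRCm38.p6, and 11558 of the 16147 tested genes matched one by symbol. The ISRE core was searched as GAAANNGAAA on both strands and GAS as TTCNNNGAA, which reads the same on both strands. ISRE letters were in 3.44% and GAS letters in 8.30% of all 32851 windows, and a match of one overlapped a match of the other in 24 windows. Among tested genes with a window, 3.94% held the ISRE core. It was in 24 of 39 separated listed genes (61.5%), in 9 of 22 separated induced genes (40.9%) and in 0 of 9 higher genes of neither class. Of the listed genes not separated, 25 of 124 (20.2%) held it, and of the induced genes not separated, 10.8%. GAS letters were in 12 of the 39 separated listed genes (30.8%), in 2 of 22 separated induced genes (9.09%) and in 14.5% of listed genes not separated, against 8.57% of all tested genes with a window. The genes were separated by the contrast that chose the lines, so these shares may follow in part from that choice. They were not tested, and near-identical genes such as Apol9a and Apol9b count separately in them. A match is a description of letters and not a binding site, and no match says only that these letters are missing from the window.

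Stretches of 50 bases are shown for separated genes of each class, for a gene of the pathway that was not separated (B2m) and for the single lower gene with a match (Igf2bp3). The match shown is the one nearest the start among those whose stretch lies wholly before the start. Each is in the direction of its gene, with the ISRE core on either strand in capitals.
Isg15: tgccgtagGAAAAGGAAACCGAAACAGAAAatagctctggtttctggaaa
Ifit1: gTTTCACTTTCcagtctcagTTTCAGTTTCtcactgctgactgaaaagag
Gbp7: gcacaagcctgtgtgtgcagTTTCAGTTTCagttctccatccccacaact
Stat2: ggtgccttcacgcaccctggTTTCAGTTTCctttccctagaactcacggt
Apol9a: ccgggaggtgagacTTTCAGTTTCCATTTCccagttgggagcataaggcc
B2m: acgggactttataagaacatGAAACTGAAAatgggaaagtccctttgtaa
Igf2bp3: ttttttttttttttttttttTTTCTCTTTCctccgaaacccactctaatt

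These lie at chr4:156200855-156200904 (Isg15, minus strand), chr19:34640784-34640833 (Ifit1, plus), chr3:142530263-142530312 (Gbp7, plus), chr10:128270256-128270305 (Stat2, plus), chr15:77411104-77411153 (Apol9a, minus), chr2:122147528-122147577 (B2m, plus) and chr6:49214995-49215044 (Igf2bp3, minus). The Isg15 stretch holds 3 overlapping matches and the Ifit1 and Apol9a stretches hold 2 each. The same 50 letters precede the near-identical gene Apol9b, at chr15:77729021-77729070. In Igf2bp3 the match ends a run of T, and no cytokine raised that gene in the quiet lines by the rule for induced genes. Its stretch lies inside the gene's span, chr6:49085218-49215469, before a start within that span and not before the outermost one.

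Outside the interferon genes, the clearest separation ran the other way. Igf2bp3, an RNA-binding protein of fetal tissues and many tumours (chr6:49085218-49215469), was nearly absent from the tonic lines, with 0.905 ± 0.264 CPM in YUMMER1.7, 0.994 ± 0.309 CPM in CT26.2 and 0.480 ± 0.371 CPM in Renca. The quiet lines had 27.1 ± 1.58 CPM in B16.1, 70 ± 3.47 CPM in KPC.2, 30.7 ± 0.772 CPM in LLC and 43.9 ± 0.571 CPM in MC38.7. In counts, the 8 tonic libraries held 53 reads and the 12 quiet libraries 5064, and the gap was 4.54 log2 units. Panc02.3, a C57BL/6 line with intermediate antiviral genes, had 0.0829 ± 0.144 CPM (n = 3), below the tonic lines. Within C57BL/6, YUMMER1.7 and Panc02.3 were thus both low and the 4 quiet lines high.

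Tfrc, the transferrin receptor that takes up iron (chr16:32608896-32632794), had 70.8 ± 1.75 CPM in YUMMER1.7, 40.8 ± 2.55 CPM in CT26.2 and 98.2 ± 16.0 CPM in Renca, against 575 ± 16.2 CPM in B16.1, 205 ± 20 CPM in KPC.2, 273 ± 7.96 CPM in LLC and 211 ± 7.68 CPM in MC38.7. Panc02.3 had 71.3 ± 2.93 CPM, inside the tonic range. Marcksl1, an actin-binding relative of MARCKS, had 11.9, 14.2 and 0.0545 CPM in YUMMER1.7, CT26.2 and Renca, against 62.9 to 177 CPM as quiet line means, with 66.0 CPM in Panc02.3. Npnt, the matrix protein nephronectin, had 0.219 to 1.95 CPM as tonic and 7.34 to 501 CPM as quiet line means. Hipk2, a nuclear kinase of stress responses, had 0.370 to 16.8 CPM as tonic and 39.2 to 76.4 CPM as quiet line means.

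The other lower genes had levels near 0 in the tonic lines. Mpp7, a cell polarity scaffold, had 30 counts in the 8 tonic and 2591 in the 12 quiet libraries. Zic2, a transcription factor of neural development, had 35 and 3221 counts, Xylt1, which starts glycosaminoglycan chains, 4 and 1881, and Slc2a3, the glucose transporter GLUT3, 39 and 2245 counts in the tonic and the quiet libraries. Bend4, Ppp1r3b, Pik3c2b, Prr5 and Zfp575 with the predicted loci Gm45140 and Gm13378 complete the 16. Slc2a3 and Prr5 were held just inside the limit by KPC.2 with 1.68 CPM and MC38.7 with 1.23 CPM. All 16 are named because they are few.

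Of the 12 higher genes in neither class, 3 exceeded 5 CPM in every tonic line. Ptpn13, a large tyrosine phosphatase (chr5:103425192-103598361), had 126 ± 6.45, 78.9 ± 11.4 and 117 ± 3.82 CPM in YUMMER1.7, CT26.2 and Renca, against 0, 5.97 ± 1.22, 1.5 ± 0.521 and 10.8 ± 1.07 CPM in B16.1, KPC.2, LLC and MC38.7. Aig1, a hydrolase of bioactive lipids (chr10:13647054-13869038), had 46.6, 57.2 and 52.8 CPM in the tonic lines, against 0.910 to 15.1 CPM as quiet line means. Spn, the sialoglycoprotein CD43 of white blood cells, ran between 4.59 and 39.8 CPM over the tonic libraries, lowest in YUMMER1.7 and highest in Renca, and between 0.125 and 2.41 CPM over the quiet libraries. Panc02.3 exceeded every tonic line for Ptpn13, with 228 CPM, and for Spn, with 162 CPM. Because Spn and Irf8 are also genes of white blood cells, the leukocyte list was read beside them: 6 of its 18 markers passed the filter, its summed level was 10.2 to 64.0 CPM in the tonic and 2.29 to 182 CPM in the quiet libraries, and Ptprc, the marker of all leukocytes, had at most 2 and 3 counts per library. Adgre1, Nkg7 and Klrb1c were at 0 in every unstimulated line. The rest of the 12 were low: Hspa12a rested on Renca, with 424 CPM, while YUMMER1.7 and CT26.2 had 0.405 and 2.47 CPM. Olfr1276, Slc35f3, Cass4, Clip4, Gm10058, Gm11977, Gm48836 and Gm7908 make up the others.

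The libraries with cytokine were not used to choose the sets, and they show how far each difference remained when interferon was supplied. With IFNb, the median of the 49 antiviral effectors was 7.20, 6.77 and 6.37 log2 CPM in YUMMER1.7, CT26.2 and Renca, against 6.30, 6.45, 7.83 and 7.21 in B16.1, KPC.2, LLC and MC38.7. Without cytokine the same medians were 7.26, 6.04 and 5.39, against 1.38, 0.75, 0.62 and 0.98. The 56 separated listed genes moved less in the tonic than in the quiet lines with IFNb. Median changes were -0.12, 0.63 and 0.99 log2 units in YUMMER1.7, CT26.2 and Renca, against 5.47, 5.03, 6.72 and 6.13 in B16.1, KPC.2, LLC and MC38.7. In YUMMER1.7, 12 of the 56 genes were above their unstimulated level with IFNb. In CT26.2 there were 53 and in Renca 55, against 55 or 56 of 56 in each quiet line. These changes are given without a test because they share the unstimulated libraries that chose the genes.

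IFNg left larger differences between lines. The antiviral median with IFNg was 8.16, 7.41 and 6.44 log2 CPM in YUMMER1.7, CT26.2 and Renca, against 8.14 in B16.1, 5.65 in KPC.2, 3.92 in LLC and 4.42 in MC38.7. B16.1 reached the tonic lines, while LLC and MC38.7 stayed below them. Ifi44 shows this spread, with 512, 1172 and 342 CPM in YUMMER1.7, CT26.2 and Renca, against 317 CPM in B16.1, 10.5 CPM in KPC.2, 3.21 CPM in LLC and 7.01 CPM in MC38.7.

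**Figure D4:**
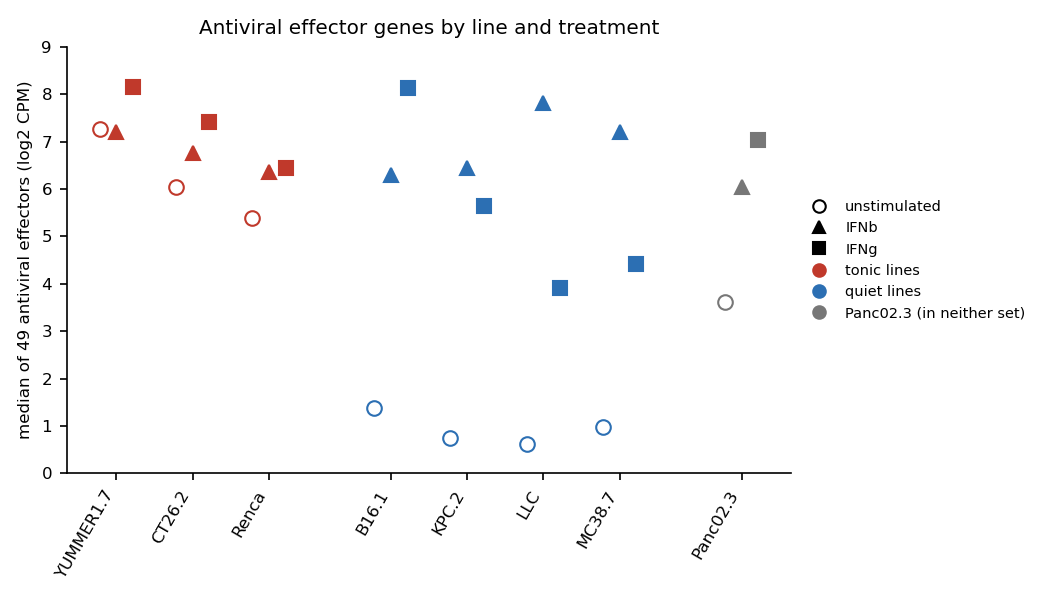
Median log2 CPM of the 49 antiviral effector genes in each line (horizontal axis), unstimulated (open circles), with IFNb (triangles) and with IFNg (squares), with tonic lines in red on the left, quiet lines in blue and Panc02.3 in grey. The unstimulated medians of 5.39 to 7.26 in tonic and 0.62 to 1.38 in quiet lines come together with IFNb, at 6.37 to 7.20 and 6.30 to 7.83.

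Few interferon genes remained separated with cytokine. With IFNb, 17 of all genes were at least 2-fold higher (0.105%) and 19 lower (0.118%) in all tonic lines, and with IFNg 15 were higher (0.0929%) and 22 lower (0.136%). Of the 56 listed genes separated without cytokine, 1 remained separated with IFNb (Irf8) and 0 with IFNg. Of the 40 induced genes, 3 remained with IFNb and 6 with IFNg, with Csn3 and H2-T-ps in both. Of the 12 higher genes in neither class, 2 remained with IFNb and 3 with IFNg, with Ptpn13 and Aig1 in both. Of the 16 lower genes, 13 remained with IFNb, 10 with IFNg and 9 with both.

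Igf2bp3 hardly moved with cytokine. With IFNb it had 0.788 ± 0.665, 1.62 ± 0.702 and 0.455 ± 0.0463 CPM in YUMMER1.7, CT26.2 and Renca, against 38.1 ± 3.85, 74.1 ± 3.98, 31.4 ± 3.45 and 47.1 ± 6.4 CPM in B16.1, KPC.2, LLC and MC38.7 (SD, n = 3 each). Tfrc remained separated with both cytokines, with 48.0 to 92.8 CPM as tonic and 236 to 504 CPM as quiet line means with IFNb, although B16.1 had 184 CPM with IFNg, against 575 CPM without cytokine. Irf7, by contrast, overlapped between the sets with IFNb, with 360 to 763 CPM in the 9 tonic and 126 to 504 CPM in the 12 quiet libraries.

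The difference between sets was tested in the cytokine libraries alone, on counts summed per line, 3 against 4. No gene passed edgeR's quasi-likelihood test at an adjusted p under 0.05 and 2-fold, with 0 higher (0%) and 0 lower (0%) with IFNb, and 0 higher (0%) and 0 lower (0%) with IFNg. At an unadjusted p under 0.05 there were 546 higher and 293 lower genes with IFNb, and 550 and 216 with IFNg, among 16147 tested. Where no gene differs, a share of about 0.05 of genes falls under this limit, so these counts alone show no difference. Of the 124 genes separated without cytokine, 32 had an unadjusted p under 0.05 in edgeR's test with IFNb and 35 with IFNg. Those 124 genes were chosen because the same lines stood apart without cytokine. Their low p-values in edgeR's test are therefore no independent observation of the difference. The lowest adjusted p with IFNg was that of Igf2bp3, and with IFNb many genes shared the lowest value with it. Its log2 difference was -5.69 ± 0.681 (SE) with IFNb (edgeR adjusted p = 0.842) and -6.41 ± 0.632 with IFNg (edgeR adjusted p = 0.278), with all 3 tonic lines below all 4 quiet lines. Tfrc had -2.58 ± 0.414 with IFNb (edgeR adjusted p = 0.842) and -2.12 ± 0.305 with IFNg (edgeR adjusted p = 0.947). For single genes, an exact permutation test of 3 against 4 lines cannot give a 2-sided p below 0.0571.

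DESeq2 on the same sums gave other counts, 80 higher and 52 lower with IFNb and 101 higher and 62 lower with IFNg, most of them in neither interferon class (117 of 132 and 148 of 163). Its calls held 7 of the 108 genes that were higher and 11 of the 16 that were lower without cytokine, with each cytokine. Over all 16147 genes, 132 were called with IFNb and 163 with IFNg. The 108 and 16 genes were chosen in the same 7 lines, so these calls are no independent observation of them. Of the 7 higher genes, 2 were called with both cytokines, Csn3 and H2-T-ps. The 11 lower genes were the same for both: Igf2bp3, Mpp7, Tfrc, Slc2a3, Zic2, Xylt1, Zfp575, Bend4, Pik3c2b, Ppp1r3b and Prr5. For Igf2bp3 DESeq2's adjusted p was 3.20e-16 with IFNb and 1.81e-22 with IFNg, and for Tfrc 5.05e-06 and 4.85e-08. With edgeR none of these passed, so these calls hold with DESeq2 only, and the cause of the difference between the tools was not tested. Without YUMMER1.7, edgeR called 8 higher and 4 lower genes with IFNb and 5 and 2 with IFNg, mostly predicted loci, in a contrast where strain and set cannot be told apart.

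**Figure D5:**
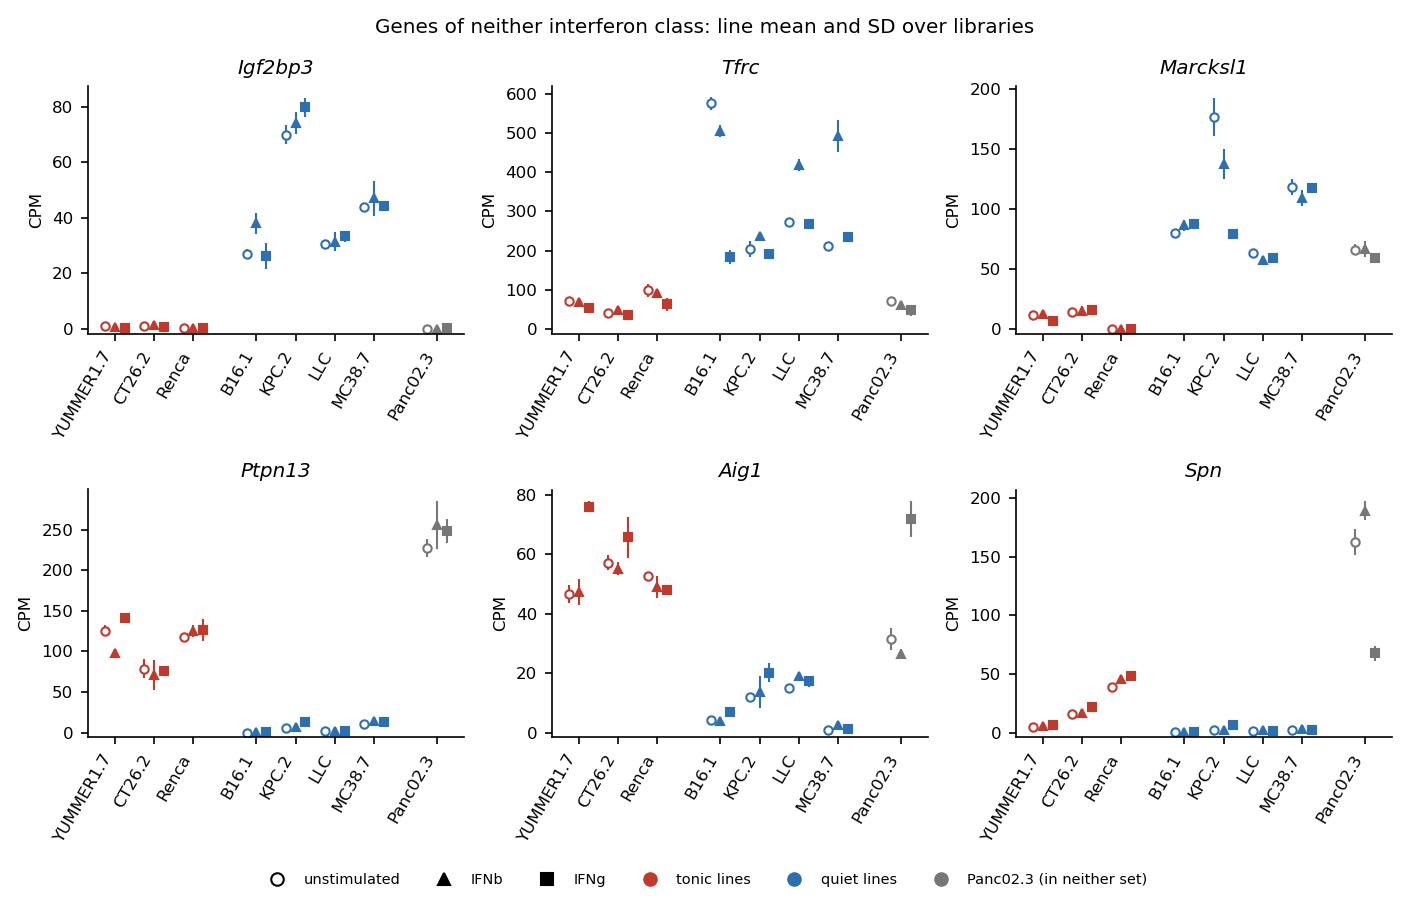
Line mean and SD over libraries (CPM, linear axes from 0) of 6 separated genes in neither interferon class, unstimulated (open circles), with IFNb (triangles) and with IFNg (squares), for tonic lines (red, left), quiet lines (blue) and Panc02.3 (grey). Igf2bp3, Tfrc and Marcksl1 are lower and Ptpn13, Aig1 and Spn higher in all tonic lines under each treatment, and Panc02.3 sits with the tonic lines for Igf2bp3 and Tfrc and with the quiet lines for Marcksl1.

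Panc02.3 was kept out of both sets for its intermediate antiviral level, so its place for the interferon genes follows from that choice and is a description of 1 line. Its unstimulated antiviral median was 3.61 log2 CPM, between the sets. Of the 56 separated listed genes it lay between the sets for 40, at or above the lowest tonic line for 5 and at or below the highest quiet line for 11. Irf7 had 21.2 ± 5.78 CPM, Isg15 35.3 ± 5.60 CPM and Ifi44 6.06 ± 1.11 CPM there (SD, n = 3). Of the 40 induced genes it lay between the sets for 21. Of the 16 lower genes, it was within the quiet range or above for 8, among them Marcksl1, Npnt and Hipk2, between the sets for 2 and at or below the highest tonic line for 6, which were Igf2bp3, Tfrc, Slc2a3, Zic2, Zfp575 and Bend4.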

How the data were processed

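Values are estimated counts per gene that the authors deposited, whole numbers for 35197 genes in 70 libraries, not scaled. Per the submitters' processing notes, Trimmomatic 0.36, kallisto (version not given in the sources used here) and mm10 or GRCm38 were used. Per the labels' protocols, RNA was extracted with RNeasy kits and libraries were made with a directional NEB Ultra II kit. Total counts ran between 668355 and 28550816 per library.

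From these, 16147 genes passed edgeR's filterByExpr over 24 groups, libraries were scaled by TMM, and log2 CPM with a prior count of 2 was averaged per line (R 4.3.3, edgeR 4.0.16). Sets were compared by line means, and in the IFNb and IFNg libraries by edgeR's quasi-likelihood test on counts summed per line, with Benjamini-Hochberg adjustment over all genes. P-values measure the spread between these lines. Of 68 replicate pairs none had counts within sampling noise (lowest chi-square per degree of freedom 1.53). The script was tested on simulated data. RefSeq gave positions for 15455 genes.

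Members and gene lists were chosen with earlier results of these data known. Genes named are, per list, up to 3 separated members with the largest gap and up to 2 abundant members that were not separated, up to 10 induced and 10 other genes per direction with at least 5 CPM in every line of the higher set, and a fixed set of pathway genes. Also named after their values were seen were the rest of the 28 separated genes outside the interferon classes, the genes nearest the 2-fold limit, DESeq2 calls, and Mx1, Mx2, Ifit2, Irf2, Irf3, Irf8, H2-T-ps, Daxx, Ehmt1, Suv39h1 and Ezh2. Alternatives were DESeq2 1.42.0, limma-voom (limma 3.58.1), other scaling, filters, prior counts, gaps, units and left-out lines or replicates.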

Additional observations from a re-analysis of the deposited data

Results flagged for a closer look

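Cdkn2a, which encodes cell cycle inhibitors and lies in the same chromosomal region as the type I interferon genes, stood at 8.42 log2 CPM in unstimulated KPC.2, with the nearest quiet line at -2.29. KPC.2 was therefore far from the other quiet lines. The tonic lines had 20.7, 0 and 125 CPM in YUMMER1.7, CT26.2 and Renca, so the gene followed neither set. Of 45 genes examined for such a line among the 4 quiet lines, 1 was picked out, and chance picks out about 1 group in 20.

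Panc02.3, a line outside both sets, had an unstimulated antiviral median of 3.61 log2 CPM, above the highest quiet line at 1.38. It was kept out of both sets because its level is intermediate, so the choice of lines fixed this outcome.

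Ifnb1 changed with IFNb by a mean of -0.50 log2 units in the tonic lines and 0.08 in the quiet lines, which was picked out as opposite directions. No rise in the quiet lines is shown by this. B16.1, KPC.2 and LLC had 0 counts in every unstimulated library and in every library with IFNb. The 0.08 rests on 3 counts in 1 MC38.7 library with IFNb. The difference was not tested, and it rests on few reads: YUMMER1.7 libraries had 5, 2 and 4 counts with IFNb and 19, 38 and 21 counts with IFNg, against 18, 10 and 7 without cytokine.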

How the results depend on the processing

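Unstimulated counts of 108 higher and 16 lower genes became 111 and 15 with DESeq2 size factors (106 and 15 shared), 107 and 16 without the filter, 148 and 22 with a prior count of 0.5, and 115 to 125 and 14 to 16 without replicate 1, 2 or 3. They became 56 and 4 at a gap of 2 log2 units, 673 and 370 with no minimum gap, 70 and 6 where every library had to stand apart, 74 and 8 with Panc02.3 among the quiet lines, 52 and 8 with it among the tonic lines, and 944 and 144 in C57BL/6 alone. Leaving out 1 line gave 124 to 381 higher and 34 to 192 lower genes, with fewer lines to separate, and most without YUMMER1.7, where strain and set cannot be told apart. In the cytokine libraries the counts of 0 stayed 0 with RLE scaling, limma-voom, no filter, Panc02.3 among the quiet lines and each replicate left out. DESeq2 called 80 and 52 genes with IFNb and 101 and 62 with IFNg, and the cause was not tested. Leaving out 1 line gave 0 to 8 higher and 0 to 4 lower genes with IFNb and 0 to 5 and 0 to 2 with IFNg, above 0 without YUMMER1.7 only. With libraries as units, which treats libraries of a line as independent, 1590 and 1308 genes were called with IFNb and 1536 and 1385 with IFNg. Adding the replicate block gave 1583 and 1307 with IFNb and 1517 and 1378 with IFNg. Whether replicate numbers pair libraries is not known: 5 of 24 mean correlations of same-numbered libraries exceeded 0.1, in a range from -0.241 to 0.225. Differently numbered libraries were not compared with them. Of 450 level differences of 45 named genes under the alternatives, 446 moved by no more than the spread between lines and 4 moved more. A change of sign was counted only for the 31 of these genes that were separated, and 0 changed sign. Leaving out 1 line could not change their sign, because all tonic lines lay on one side of all quiet lines. Levels under a few reads per library, as in the quiet lines for Ifi44, are limited by depth.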

Other observations

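Lin28b, an RNA-binding protein of fetal tissues, and Otx1, a homeobox factor, fell just short of the limit without cytokine and were chosen here after their values were seen. Lin28b had -2.29, -1.95 and -2.29 log2 CPM in YUMMER1.7, CT26.2 and Renca, against 3.06, -1.04, 1.68 and 1.67 in B16.1, KPC.2, LLC and MC38.7, and -2.29 in Panc02.3. Its gap was 0.92 log2 units without cytokine, 1.47 with IFNb and 1.46 with IFNg. The edgeR test on line sums gave Lin28b an adjusted p of 0.842 with IFNb and 0.947 with IFNg, whereas DESeq2 on the same sums gave 2.27e-05 and 0.000441. Otx1 had gaps of 0.94, 1.14 and 1.19 log2 units in the same order of treatments. DESeq2 called Otx1 with IFNg (adjusted p = 0.0415) and not with IFNb, edgeR with neither, and Panc02.3 had 4.41 log2 CPM of it, above every quiet line.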
